A study of Homo sapiens with 4 samples.

Results

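PFKP and GALNT1 are 2 of the 20098 protein-coding genes on chromosomes 1 to 22 and X. They were chosen by the score of a peak in the list of wild-type BRG1, where they hold 2 of the 5 highest-scoring peaks, and by the overlap of those peaks with the list of HSA-deleted BRG1. All peaks of both lists that lay in the gene body or in the 100 kb on each side were taken, which gave 25 of 49583 peaks: 5 iBRG1 and 7 i∆HSA peaks at PFKP, and 6 iBRG1 and 7 i∆HSA peaks at GALNT1. The score, rank and sharing of the highest peak at each gene are therefore a description of how the genes were picked. Just inside the limit of 5 stood the peak at ERBB4, with a score of 82, and just outside it a peak on chromosome 3 outside coding genes, with a score of 79.

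To locate BRG1 on chromatin with and without its HSA domain, the study used CUT&RUN, in which an antibody directs a nuclease to a chromatin protein and the released DNA fragments are sequenced. The cells were clonal derivatives of SW-13, an adrenocortical carcinoma line in which both SWI/SNF ATPases, BRG1 and BRM, are silenced. Each of 2 groups held 2 replicates: cells with an inducible, V5-tagged full-length BRG1 (iBRG1), and cells with the same construct lacking the HSA domain (i∆HSA, titled HSA-V5). All 4 samples held 300000 cells, were given doxycycline for 24 h and were probed with anti-V5, so no uninduced sample stands beside the values. Each line is an individual clone, and a difference between clones cannot be told apart from the deletion. There was 1 peak list per construct, so no value has a replicate error and no test was run. The depth behind the lists is unknown, and peak lists hold no expression values with which to check the cell type.

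BRG1 uses ATP to move or evict nucleosomes, and its HSA (helicase/SANT-associated) domain is the platform on which actin-related proteins assemble. SWI/SNF complexes are known to act at promoters and at distal enhancers, where transcription factors such as AP-1, the FOS and JUN dimer, recruit them. PFKP encodes the platelet-type phosphofructokinase, which phosphorylates fructose phosphate to the bisphosphate at the committed step of glycolysis. GALNT1 encodes a Golgi enzyme that attaches the first sugar, N-acetylgalactosamine, to serine or threonine and so starts mucin-type O-glycans.

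The middle of the PFKP peak and the stretch of GALNT1 that holds the AP-1 match nearest its peak midpoint are shown because they hold 3 of the 4 AP-1 matches of the PFKP peak and the 1 AP-1 match of the GALNT1 peak. Both are 300 bp, come from the plus strand of the hg19 reference and lie in introns, with motif matches in capitals. The PFKP stretch, chr10:3137600-3137899 in intron 2, holds AP-1 matches from bases 38, 110 and 196 and a GATA match from base 158. The GALNT1 stretch, chr18:33283150-33283449 in intron 10, holds a FOX match from base 12, an NR5A match from base 102 and an AP-1 match from base 179.
PFKP intron 2: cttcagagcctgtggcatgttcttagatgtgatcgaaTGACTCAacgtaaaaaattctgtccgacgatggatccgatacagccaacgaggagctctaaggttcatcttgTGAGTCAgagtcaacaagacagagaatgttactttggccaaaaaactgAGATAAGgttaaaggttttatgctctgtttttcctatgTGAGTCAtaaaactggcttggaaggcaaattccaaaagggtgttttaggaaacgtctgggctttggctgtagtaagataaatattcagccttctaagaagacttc
GALNT1 intron 10: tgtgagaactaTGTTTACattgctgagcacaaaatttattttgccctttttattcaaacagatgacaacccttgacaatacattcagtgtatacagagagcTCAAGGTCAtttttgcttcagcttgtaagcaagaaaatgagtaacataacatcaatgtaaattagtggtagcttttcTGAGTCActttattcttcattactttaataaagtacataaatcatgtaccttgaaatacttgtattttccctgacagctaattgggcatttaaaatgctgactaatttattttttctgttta

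PFKP (ENSG00000067057) lies on the plus strand at chr10:3108525-3179910, spans 71386 bp and has 22 exons in its canonical transcript. Its highest peak was inside the gene in both lists, in intron 2 and 28.0 kb downstream of the canonical start site. In the iBRG1 list this peak, chr10:3137198-3138322, was 1125 bp wide and had a score of 100, rank 2 of 24212. The i∆HSA peak at the same place, chr10:3137052-3138356, was 1305 bp wide and also had a score of 100, which was rank 162 of 25371 and shared by 4 peaks. Equal scores thus stood at different ranks, as the lists differ in range (scores up to 180 in the iBRG1 list and up to 875 in the i∆HSA list), and scores were compared only within a list. The whole iBRG1 peak lay within the i∆HSA peak and covered 86.2% of it, with the midpoints 56 bp apart.

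The other peaks around PFKP were lower and none was shared. Upstream of the gene, the second-highest iBRG1 peak, chr10:3087534-3088343, had a score of 24 (rank 444) and lay at -21.8 kb, in the intron of the long noncoding RNA gene ENSG00000287560 and less than 1 kb from its start. It was 810 bp wide and, at 51.1% GC, was richer in GC than 90.5% of iBRG1 peaks. The nearest i∆HSA peak was 18859 bp away. That peak, chr10:3067469-3068675, was the second-highest i∆HSA peak at the gene and lay at -41.7 kb with a score of 17 (rank 2269). The next scores below the highest were thus lower by 4.17-fold (iBRG1) and 5.88-fold (i∆HSA).

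The remaining iBRG1 peaks around PFKP, at -77.1, -12.1 and 159 kb from the start site, had scores of 2, 3 and 1. The median of the whole list was 2. The peak at -12.1 kb was the widest at the gene in this list (1951 bp), and the peak at 159 kb overlapped an exon of the noncoding gene ENSG00000236968. The remaining i∆HSA peaks lay on both sides of the start site. Those at -83.3 and -62.5 kb each had a score of 7, above the list's median of 4, while those at 53.0, 130 and 150 kb had scores of 2, 2 and 3. The peak at 53.0 kb, chr10:3161902-3163668, overlapped exon 16 and was the only other peak of either list inside PFKP. PITRM1, a mitochondrial peptidase gene that follows PFKP on the opposite strand, lies inside the window, and 0 peaks of either list fell in its body.

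**Figure D1:**
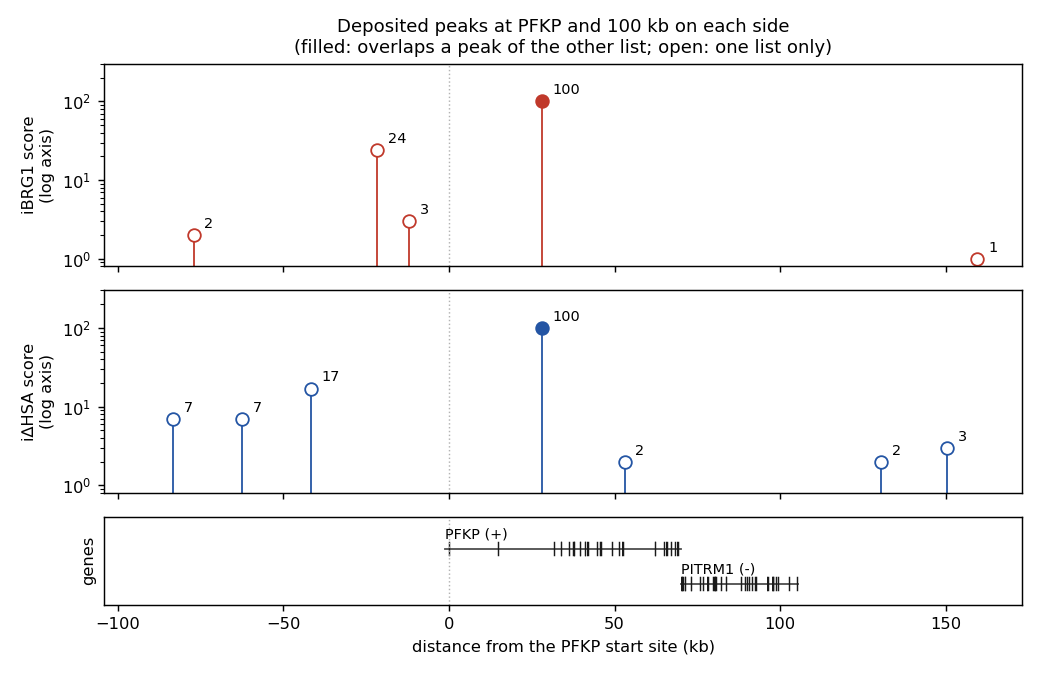
Peaks at PFKP and 100 kb on each side, with the deposited score on a log axis (iBRG1 above, i∆HSA below) against the distance from the canonical start site in kb. Stems are peaks labelled with their score, filled where shared, and ticks on the gene lines are exons; the intron 2 peak with a score of 100 in each list stands above all others, and no peak lies at the PFKP start.

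GALNT1 (ENSG00000141429) lies on the plus strand at chr18:33161081-33291798, spans 130718 bp and has 12 exons in its canonical transcript. Its highest peak lay near the 3' end of the gene in both lists, 121 kb downstream of the canonical start site. In the iBRG1 list it was chr18:33281956-33284038, 2083 bp wide, with a score of 84 and rank 4. The i∆HSA peak, chr18:33282285-33284082, was 1798 bp wide, with a score of 55 and rank 487, which 14 peaks held. The peaks overlapped by 1754 bp, or 84.2% of the iBRG1 peak and 97.6% of the i∆HSA peak, and their midpoints were 186 bp apart. Both covered coding exons 10 (33282861-33282959, 99 bp) and 11 (33283473-33283607, 135 bp) of the canonical transcript and the intron between them. Part of this sequence is annotated as 3' untranslated only in 2 other transcripts of GALNT1.

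A second shared pair lay in the GALNT1 window and not in the gene. It covered the promoter of INO80C, which encodes a subunit of the INO80 remodeling complex and is transcribed away from GALNT1. The iBRG1 peak there (chr18:33075941-33079336, 3396 bp) and the i∆HSA peak (chr18:33077279-33078991, 1713 bp) each had a score of 8, at ranks 3070 and 5120. The i∆HSA peak lay wholly inside the iBRG1 peak and covered 50.4% of it. Among the 4967 shared iBRG1 peaks, 1668 had a higher iBRG1 score than this one, against 2 for the GALNT1 exon 10 and 11 peak and 0 for the PFKP peak. By the score of the overlapping i∆HSA peak, which did not set the order of the iBRG1 list, 2437 pairs were above the INO80C pair, 307 above the GALNT1 pair and 106 above the PFKP pair.

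Peaks found in 1 list alone lay at different places along GALNT1. The iBRG1 list had peaks in intron 1 (24.4 kb from the start, score 5, rank 5257) and over exon 5 (score 16, rank 1117), where the nearest i∆HSA peak was 18646 bp away. The i∆HSA list had 3 peaks between these places, with scores of 2, 4 and 3, at 66.4, 73.2 and 80.04 kb. The one at 73.2 kb, chr18:33233847-33236057, covered exon 2, which holds the start codon, and lay at the start of other GALNT1 transcripts. Outside the gene, the iBRG1 list had peaks at -52.2 kb (score 2) and 230 kb (score 7, crossing the end of the window), and the i∆HSA list at -25.7 kb (score 4) and 209 kb (score 3). The highest score was 5.25-fold (iBRG1) and 6.88-fold (i∆HSA) above the next one.

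**Figure D2:**
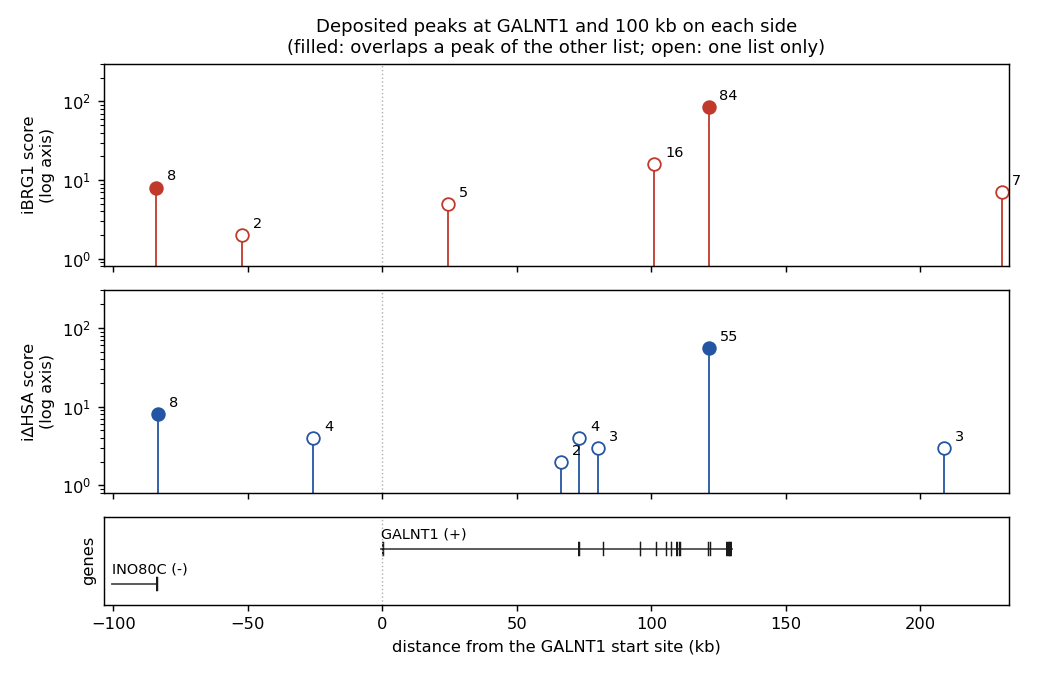
Peaks at GALNT1 and 100 kb on each side, with the deposited score on a log axis (iBRG1 above, i∆HSA below) against the distance from the canonical start site in kb. Stems are peaks labelled with their score, filled where shared, and ticks on the gene lines are exons; shared peaks stand at INO80C (score 8 in each list) and over exons 10 and 11 (84 and 55), while the peaks between are in 1 list each.

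The start sites of both genes were then examined, as promoters are a common place for BRG1. At PFKP, 0 of 16 annotated start sites had a peak of either list within 1 kb, and the nearest peak to the canonical start was 11144 bp away in the iBRG1 list and 27312 bp away in the i∆HSA list. At GALNT1, 0 of 5 start sites had an iBRG1 peak within 1 kb and 2 of 5 had an i∆HSA peak, the one over exon 2. The canonical GALNT1 start was 23935 bp from an iBRG1 peak and 25004 bp from an i∆HSA peak. At neither gene was a peak listed at the canonical promoter, which does not show that BRG1 was absent there.

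Most peaks at both genes were in 1 list alone, many of them with low scores. At PFKP sharing was seen for 1 of 5 peaks in the iBRG1 list and 1 of 7 in the i∆HSA list, and at GALNT1 for 2 of 6 and 2 of 7. Over the complete lists, the shared portion (an overlap of 1 bp or more) was 20.5% for iBRG1 and 19.6% for i∆HSA. Among peaks with scores of at least 5, sharing was seen at PFKP for 1 of 2 (iBRG1) and 1 of 4 (i∆HSA), and at GALNT1 for 2 of 5 and 2 of 2. In the lists filtered in the same way it was 34.8% for iBRG1 and 21.9% for i∆HSA. The choice of the genes fixed 1 shared pair at each in advance, and all these counts include it. They can therefore not be set above or below the shares of the lists. A window with a shared iBRG1 peak was common, at 47.6% of the 20098 coding gene windows. Peaks were denser at both genes than at the median gene, but the choice of the genes put at least 1 peak of each list in each window. PFKP had 1.84 iBRG1 and 2.58 i∆HSA peaks per 100 kb, at percentiles 81.5 and 88.2 of all coding genes, where the medians were 0.971 and 1.34. GALNT1 had 1.81 and 2.12, at percentiles 80.8 and 78.6.

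The ranks of the highest peaks depended on the list. The other genes among the 5 highest iBRG1 scores were PGR, the progesterone receptor gene (score 180, not shared), ADGRG6, an adhesion receptor gene (88), and ERBB4, a receptor tyrosine kinase gene (82). The ADGRG6 peak overlapped an i∆HSA peak with a score of 125 (rank 93) and the ERBB4 peak one with a score of 43 (rank 695). The i∆HSA peaks at PFKP and GALNT1 were thus between those at ADGRG6 and ERBB4. The 20 highest iBRG1 ranks hold 21 peaks, of which 19 were shared. Among those 19, the i∆HSA peak at PFKP was the 7th highest and that at GALNT1 the 12th. Of the i∆HSA peaks at the 100 highest ranks, 66 were under 25% GC, against 3 at the same iBRG1 ranks. Over the complete lists, 24169 of 25371 i∆HSA and 23997 of 24212 iBRG1 peaks were at 25% GC or more. The i∆HSA peaks at PFKP and GALNT1 were at 39.2% and 33.3% GC. Without the peaks under 25% GC, the i∆HSA ranks became 75 for PFKP and 298 for GALNT1, and the iBRG1 ranks stayed 2 and 4.

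**Figure D3:**
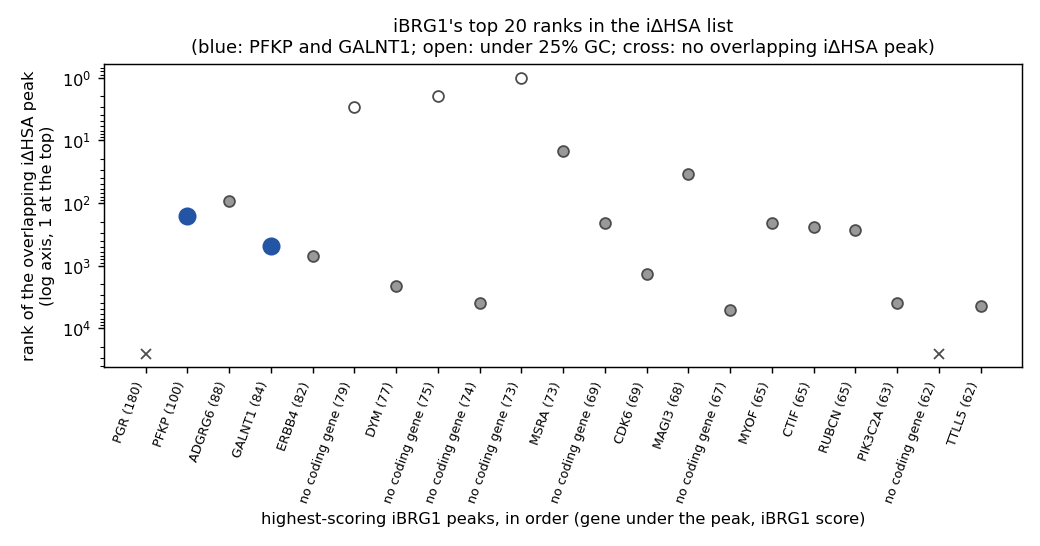
Rank of the overlapping i∆HSA peak (log axis, rank 1 at the top) for each of the 21 iBRG1 peaks at the 20 highest ranks, in order of iBRG1 score, which is in brackets. PFKP (rank 162) and GALNT1 (rank 487) are large blue points, open points are peaks under 25% GC, which reach i∆HSA ranks 1, 2 and 3, and crosses at the bottom mark the 2 peaks with no overlapping i∆HSA peak.

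**Figure D4:**
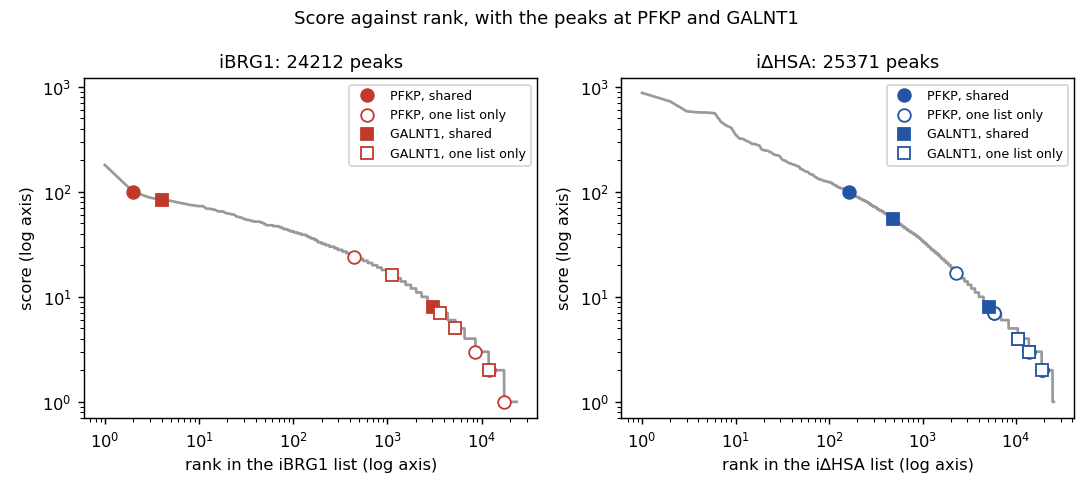
Score against rank on log axes for all iBRG1 peaks (left) and all i∆HSA peaks (right), as grey lines, with scores of 0 not drawn. Circles are peaks at PFKP and squares peaks at GALNT1, filled where shared; the highest peak at each gene stands at iBRG1 ranks 2 and 4 and at i∆HSA ranks 162 and 487, and the other peaks at rank 444 or beyond.

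Next, the peaks were searched for 12 motifs, either strand counting, within 150 bp of the midpoint and in the whole peak. AP-1 was searched as TGACTCA, which read from the other strand gives TGAGTCA. For TEAD, the DNA-binding partners of YAP, the pattern was CATTCCA with either A or T as the last letter. CTCF, the insulator protein, was searched as CCACCAGNG and as CCACTAGNG. The patterns of factors common at CpG-rich promoters were CCGGAAGT for ETS, GGGGCGGGG for SP/KLF, and TGACGTCA for CRE, the element of the CREB family. The E-box of MYC and related factors was searched as CACGTG. For RUNX factors the pattern was TGTGGTT. NFY was searched as the promoter element CCAAT with CA, CG, GA or GG after it. For the nuclear receptors of the NR5A group the patterns were TCAAGGTCA and TCAAGGCCA. GATA factors were searched as AGATAAG. For forkhead (FOX) factors the pattern was TGTTTAC. No motif was contained in another. A match is a run of letters, not a measured binding site.

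The PFKP intron 2 peak held 4 AP-1 matches, all in the part common to both lists, with starts 72, 86 and 269 bp apart. As many as 4 were held by 191 of all iBRG1 peaks (0.789%) and 149 i∆HSA peaks (0.587%). Among the 1979 iBRG1 peaks within 10% of its width, 3 had 4 or more (0.152%), and among 48424 windows of its width placed 10 kb to either side of the iBRG1 peaks, 6 did (0.0124%). At least 1 AP-1 match was found in 41.2% of the iBRG1 list, 31.3% of the i∆HSA list and 16.4% of those windows. PFKP was chosen by score, and among iBRG1 peaks at the 100 highest ranks this share was 63.4%. How many of those peaks held 4 was not computed. The PFKP peak also held a GATA match near its midpoint and, toward its ends, a TEAD and a RUNX match. These motifs were common in the iBRG1 list, where 19.8% of whole peaks held GATA, 46.2% TEAD and 24.4% RUNX. For GATA, the share at iBRG1 centres was 4.61%, close to the 4.37% in windows 2 kb to either side. At 21.3 CpG per kb it exceeded the iBRG1 median of 6.85, although its GC content of 38.9% was close to the median of 38.6%.

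The iBRG1 peak over GALNT1 exons 10 and 11 was wider than the PFKP peak. It held the AP-1, TEAD, RUNX and GATA motifs found there, and also NFY, NR5A and FOX. It had 1 AP-1 match, at 33283328-33283334 in intron 10, which was outside the 150 bp around the iBRG1 midpoint. The same match lay 148 bp from the i∆HSA midpoint, at the border of that window, and was not counted within it. An NR5A match, the motif of orphan receptors such as the adrenal regulator SF-1, and a FOX match lay in the 150 bp around the i∆HSA midpoint. NR5A matches were found at 0.723% of iBRG1 and 0.642% of i∆HSA centres, and at 0.783% and 0.816% of windows 2 kb to either side. In whole peaks, the measure that fits the iBRG1 peak, where the match lay outside the centre, the shares were 4.19% and 3.58%. TEAD, NFY, GATA and a further FOX match lay in the part common to both lists, and a RUNX match only in the iBRG1 part. This peak had 2.40 CpG per kb and 33.3% GC.

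**Figure D5:**
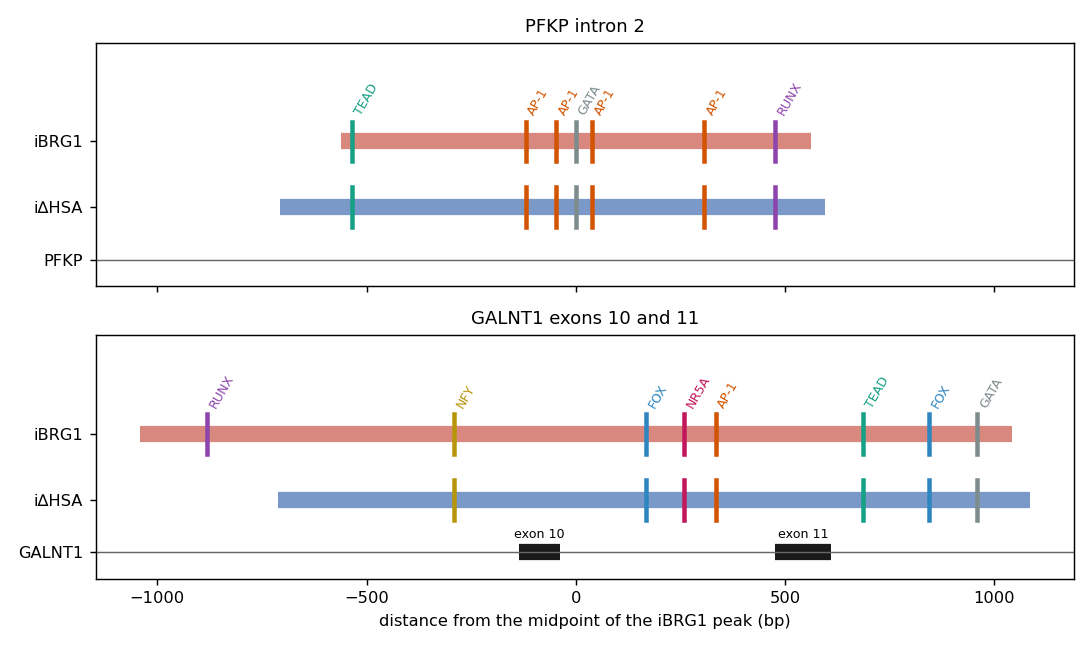
Motif matches (coloured bars, named above) in the highest peak at PFKP and at GALNT1, drawn against the distance in bp from the midpoint of the iBRG1 peak, with the iBRG1 peak in red, the i∆HSA peak in blue and exons of the canonical transcript in black. The 4 AP-1 matches at PFKP are in both peaks, and at GALNT1 the single AP-1 match, an NR5A and a FOX match lie between exons 10 and 11.

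At PFKP, AP-1 matches at peak centres were in 1 of 5 peaks (iBRG1) and 2 of 7 (i∆HSA), and at GALNT1 in 2 of 6 and 0 of 7. These counts are too small to set above or below the shares of the lists. Over the lists the shares were 12.8% of iBRG1 and 9.05% of i∆HSA centres, against 4.46% and 4.44% of windows 2 kb to either side. In whole peaks, AP-1 was found at PFKP in 2 of 5 peaks of the iBRG1 list and 2 of 7 of the i∆HSA list, and at GALNT1 in 5 of 6 and 2 of 7, where 41.2% and 31.3% of the lists held a match. Per kb of peak, the 7 matches in the iBRG1 peaks at GALNT1 gave 0.724 and the 2 in the i∆HSA peaks 0.163. The lists as a whole had 0.387 and 0.291, and so few matches cannot be set above or below them. At PFKP the values were 0.808 and 0.738, and 4 of the 5 matches in each list were those of the intron 2 peak. The exon 5 peak of the iBRG1 list at GALNT1 held 3 AP-1 matches, with a TEAD and a GATA match.

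PFKP and GALNT1 were chosen by the rank of their iBRG1 peaks, so the lower ranks at other members of the same pathways are a description. Of 7 phosphofructokinase genes, including the PFKFB enzymes that make and degrade its activator, 4 had a shared peak in the gene or 100 kb on each side, or 57.1% beside the 47.6% of all coding genes. Without PFKP it was 3 of 6, and the highest scores were 16 in the iBRG1 list, at PFKFB3, and 42 in the i∆HSA list, at PFKM, the muscle-type enzyme. PFKL, the liver-type enzyme, had 1 iBRG1 peak, of score 2, and 0 i∆HSA peaks. Among 19 other glycolysis genes, 11 had a shared peak (57.9%), with the highest iBRG1 score at ENO1, an enolase gene (21).

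Among the 20 polypeptide GalNAc-transferase genes, 6 had a shared peak (30.0%), and 5 of 19 without GALNT1 (26.3%), beside the 47.6% of all coding genes. The highest scores without GALNT1 were 30 at GALNT18 in the iBRG1 list and 41 at GALNT2 in the i∆HSA list. GALNT7, which adds further sugars to glycosylated peptides, had the most shared iBRG1 peaks of this family, 3 of its 7. Of 9 genes that extend O-glycans, 3 had a shared peak (33.3%). The highest scores were at C1GALT1, the core synthase (20 in the iBRG1 list), and GCNT3, a branching enzyme (41 in the i∆HSA list). The counts in these gene lists are too small to set above or below the share of all coding genes. Apart from PFKP and GALNT1, which were chosen by that rank, 0 genes in these 4 lists had a peak among the 100 highest iBRG1 ranks. With both included, 0 genes had one among the 100 highest i∆HSA ranks. The share of all coding genes with such a peak was not computed, so these counts of 0 cannot be read as a trait of these gene lists.

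The coding genes whose windows were most like each gene were found from percentiles of 5 measures: peaks per 100 kb in each list, the share of iBRG1 peaks that were shared, and the highest score in each list. Likeness was the largest of the 5 differences in percentile over all 20098 genes. For PFKP these were CASZ1 (4.18 percentiles), COMMD5 (5.00) and C11orf98 (6.19), and for GALNT1 FAM81A (3.83), THADA (4.34) and MSRA (4.59). The highest i∆HSA scores were 61 at CASZ1, 124 at COMMD5 and 40 at C11orf98, beside 100 at PFKP. They were 41 at FAM81A, 46 at THADA and 286 at MSRA, beside 55 at GALNT1. The highest iBRG1 scores of these genes were all lower than that of the gene they resemble, which was chosen by that score.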

How the data were processed

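CUT&RUN was performed on 4 samples, and groups were taken from their titles. The score of each peak is the authors' deposited value, a whole number of unstated scale, and the other columns used were peak start and end. Per the labels and methods, the authors used cutadapt, Bowtie2, Picard, SAMtools and MACS2 (2.2) with hg19, removed peaks of negative controls and kept a minimum score of 5. The deposited lists still hold scores from 0 (iBRG1) and 1 (i∆HSA), with 27.2% and 41.1% of peaks at 5 or more. They had thus not been limited to 5 or more in this column. Whether the authors' minimum refers to this column is not stated, nor whether peaks of negative controls were removed from the deposited lists. Whether replicates were pooled is not stated.

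Positions are 1-based on GRCh37, with GENCODE release 44 mapped to it. Peaks overlapping by at least 1 bp were called shared, ties took the best rank, and a promoter was 1 kb on each side of a transcript start. Scripts were tested on simulated data and used Python 3.11.15, numpy 2.4.6, pandas 2.3.3 and matplotlib 3.10.9. Genes named were PFKP, GALNT1, coding genes in their windows, genes with the other peaks of the 5 highest iBRG1 scores, related genes in the 100 highest ranks, and the 3 most alike. Genes with the highest scores in the related lists, PFKL and GALNT7 were named after their values were seen, and 1 such gene is not reported here. Members, lists and motifs were chosen with earlier results of these data known.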

Additional observations from a re-analysis of the deposited data

How the results depend on the processing

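No paired analysis was possible because the lists carry no value per replicate, and for the same reason no replicate could be left out. The shared peak at PFKP is the one that chose the gene, so its count of 1 under the alternatives says nothing on stability. Of 34 alternative values, 15 were within 1.5-fold of the value reported and 19 were not. The iBRG1 peaks at PFKP went from 5 to 2 with scores of at least 5, 3 with 50 kb on each side and 1 in the gene body. The i∆HSA peaks there went from 7 to 4 with scores of at least 5, 4 with scores of at least the median, 3 with 50 kb and 2 in the gene body. At GALNT1 the iBRG1 peaks went from 6 to 3 with 50 kb and 3 in the gene body, the shared peaks from 2 to 1 under both, and the i∆HSA peaks from 7 to 2 with scores of at least 5, 4 with scores of at least the median and 4 in the gene body. AP-1 at iBRG1 centres went from 1 to 2 peaks at PFKP and from 2 to 5 at GALNT1 when whole peaks were searched, and from 2 to 1 at GALNT1 with 100 bp on each side. Leaving out peaks under 25% GC, chosen after seeing the data, moved the i∆HSA ranks from 162 to 75 at PFKP and from 487 to 298 at GALNT1. The unknown depth limits what the absence of a peak from a list can show.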
